A study of Mus musculus with 32 samples.

Results

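The genes described here are 26 genes of cholesterol synthesis and its control by the sterol regulatory element binding proteins (SREBPs), followed across every cell type, age and treatment of a study of mouse glia. They were chosen by name, from the pathway, and not by a rule on their measured values. Earlier results of these data were known when they were chosen. All 26 were listed in each of the 4 count tables, beside 55291 genes in the astrocyte and oligodendrocyte tables, 53700 in the microglia table and 17572 in the culture table. They comprise 19 enzymes of the sterol pathway, 1 enzyme of its geranylgeranyl branch (Ggps1), 5 control genes (Srebf1, Srebf2, Scap, Insig1 and Insig2) and Stard4, which encodes a soluble carrier that moves cholesterol between membranes.

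The study's 32 libraries all came from mice with the TDP-43_Q331K genotype, a mutant of TDP-43, which binds RNA, used to model amyotrophic lateral sclerosis. The promoter that drives the transgene is not stated in the labels, and no library without the transgene was analysed here, so an effect of age cannot be told apart from ageing without it. Cortices and spinal cords gave astrocytes selected with ACSA2 at 3, 6 and 10 months (4, 5 and 2 libraries) and oligodendrocytes selected with O4 at 3 and 6 months (4 libraries each). Microglia selected with Cd11b came from cortices at 3 and 10 months (3 and 4 libraries). Primary TDP-43_Q331K astrocytes were kept in culture for 14 days, replated and given vehicle or 40 µM Omomyc for 48 h (3 libraries each). Omomyc is a miniprotein made from part of MYC that blocks MYC function.

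Cholesterol is built from acetyl-CoA through mevalonate and farnesyl diphosphate, then through squalene and lanosterol, and a final series of steps trims and reduces the sterol. When sterol in the endoplasmic reticulum is low, SCAP carries SREBP precursors to the Golgi, where proteases release the part that turns on the enzyme genes. INSIG1 and INSIG2 hold SCAP back when sterol is ample. The brain makes its own cholesterol, since lipoproteins of the blood do not cross the blood-brain barrier. Oligodendrocytes use it for myelin, and astrocytes make it and export it on apolipoprotein particles.

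Astrocyte libraries held 6151583 to 20763190 counts and oligodendrocyte libraries 9752907 to 18598533. Microglia libraries were shallower, at 4145129 to 5612071, and culture libraries deepest, at 30117025 to 37470972. Levels within a table are given as CPM (counts scaled to a common effective library size), and changes as log2 fold changes ± SE from edgeR's quasi-likelihood test. Genes were called where the p, adjusted by Benjamini-Hochberg over all genes tested, was under 0.05. The sorts held their labelled cells with admixture. In ACSA2 libraries 14 astrocyte markers (most abundant Slc1a2 and Slc1a3) summed to between 26296 and 40000 CPM, but 16 markers of myelinating oligodendrocytes (Mbp among the most abundant) also summed to between 18910 and 44175 CPM. In O4 libraries the same 2 lists summed to between 525 and 809 CPM and between 92920 and 177046 CPM. The part of this admixture in the astrocyte values was not tested, and in such bulk samples fewer cells of a type and less RNA per cell cannot be told apart. One O4 library, replicate 1 at 6 months, stood apart from its group: it was the lowest of 4 for 18 of the 26 genes and the highest for 6. The count of called genes, and the genes it touched most, are therefore also given without it. Some other libraries lay at an end of their group for many genes as well. Replicate 1 of 6 month astrocytes was the highest of 5 for 17 genes. Replicate 1 was the lowest of 3 for 19 genes with Omomyc and for 18 with vehicle, and replicate 2 of 3 month microglia for 18. Counts with each library left out in turn are given at the end. Nothing in the labels says that replicates came from separate animals or cultures, so p-values measure the spread between these libraries, which may be technical.

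Compared per transcript length, in the authors' TPM, either Hmgcs1 or Srebf1 had the highest mean level in each group of sorted astrocytes and oligodendrocytes. Hmgcs1, which encodes the cytosolic synthase that condenses acetoacetyl-CoA with acetyl-CoA, had the highest mean level in 3 month oligodendrocytes, at 579 ± 63.6 TPM (SD, n = 4). The next gene there, Srebf2 at 196 ± 13.4 TPM, did not overlap with it in any library. At 6 months Hmgcs1 still ranked first, at 212 ± 64.9 TPM (n = 4), followed by Srebf1 at 141 ± 38.7 TPM. In astrocytes Hmgcs1 led at 3 months with 324 ± 22.9 TPM (n = 4), whereas Srebf1 led at 6 months with 393 ± 33.7 TPM (n = 5) and at 10 months with 452 ± 34.3 TPM (n = 2). Fdps, which encodes farnesyl diphosphate synthase, had the lowest mean of the 26 in each of these 5 groups, between 3.98 and 8.92 TPM. Its level is uncertain, since 26.71% of its exon bases are shared with Gm43738 on the same strand. The order was loose: in each of the 3 and 6 month groups at least 20 of the 25 neighbouring pairs overlapped in their libraries. At the top, Hmgcs1 overlapped with the next gene in 3 month astrocytes and 6 month oligodendrocytes, and Srebf1 in 6 month astrocytes. At the bottom, Fdps overlapped with Tm7sf2 in 3 month oligodendrocytes.

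Promoters of these genes were read from RefSeq on GRCm38.p6, which gave windows of 250 bases before to 50 bases after the start site for 22 of the 26. Fdps, Fdft1, Sqle and Stard4 had no entry. A pentamer bound by NF-Y, a factor that works together with SREBPs (CCAAT on either strand), was in the first window of 19 of the 22 genes, against 37.92% of 27025 genes and 39.026% of 17491 coding genes. The GC box GGGCGG, bound by Sp1, was in 18 of the 22, against 46.315% of coding genes. The E-box CACGTG, which MYC and SREBP-1 can both bind, was in 4 (Hsd17b7, Insig1, Sc5d and Scap), against 7.901% of coding genes. The sterol regulatory element core TCACNCCAC was in 1, Hmgcs1, against 1.172% of coding genes. Both strands were searched, none of these motifs contains another, and a match is only a run of letters. The 250 bases upstream of 3 genes are shown: Hmgcs1, which holds the element core and fell furthest among the early enzymes in oligodendrocytes, Mvk, which holds the most CCAAT matches of the 22, and Sc5d, which holds an E-box. Capitals mark TCACNCCAC, CACGTG and CCAAT, the last of which reads ATTGG where it lies on the other strand.
Hmgcs1, chr13:119690101-119690350, plus strand: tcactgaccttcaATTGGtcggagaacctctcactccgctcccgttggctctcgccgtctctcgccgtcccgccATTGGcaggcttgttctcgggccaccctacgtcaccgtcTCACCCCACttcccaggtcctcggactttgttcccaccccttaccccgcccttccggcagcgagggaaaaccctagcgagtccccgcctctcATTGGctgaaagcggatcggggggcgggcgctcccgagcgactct
Mvk, chr5:114444019-114444268, plus strand: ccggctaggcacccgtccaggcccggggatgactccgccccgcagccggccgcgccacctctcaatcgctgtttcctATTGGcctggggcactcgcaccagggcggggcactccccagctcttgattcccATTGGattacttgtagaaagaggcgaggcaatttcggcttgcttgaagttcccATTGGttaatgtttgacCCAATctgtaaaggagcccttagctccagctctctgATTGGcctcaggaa
Sc5d, chr9:42264301-42264550, minus strand: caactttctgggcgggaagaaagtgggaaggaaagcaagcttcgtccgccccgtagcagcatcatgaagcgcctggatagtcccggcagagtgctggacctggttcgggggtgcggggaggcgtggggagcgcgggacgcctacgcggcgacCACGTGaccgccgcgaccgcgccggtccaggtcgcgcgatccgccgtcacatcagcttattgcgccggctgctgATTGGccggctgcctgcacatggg
In the Hmgcs1 window the core begins 137 bases before the start site, and CCAAT matches begin at 237, 176 and 45 bases before it. Mvk has 5 CCAAT matches, the nearest 14 bases before its start, and in Sc5d the E-box begins 98 bases and the CCAAT match 24 bases before the start.

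In oligodendrocytes the pathway was lower at 6 months than at 3 months along nearly its whole length. Of the 26 genes, all tested, 17 fell, 0 rose and 9 were not called, where 9.46% of all 14050 genes tested fell and 14.9% rose. None of the 26 was higher in DESeq2 or at an unadjusted p under 0.05, while 19 were lower in DESeq2 and 20 at that unadjusted p. Over all genes tested, DESeq2 gave 2259 higher and 1664 lower of 14020. An unadjusted p under 0.05, in either direction, was found for 5201 of 14050 genes. The median log2 fold change was -0.67, against 0.02 over all genes tested. Summed over the 26 genes, levels were between 2992 and 3379 CPM at 3 months and between 1720 and 2054 CPM at 6 months. In 19 of the 26 the libraries of the groups did not overlap, each time with 6 months lower. How many of all genes tested were without overlap was not counted, so this count is not set against a share.

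**Figure D1:**
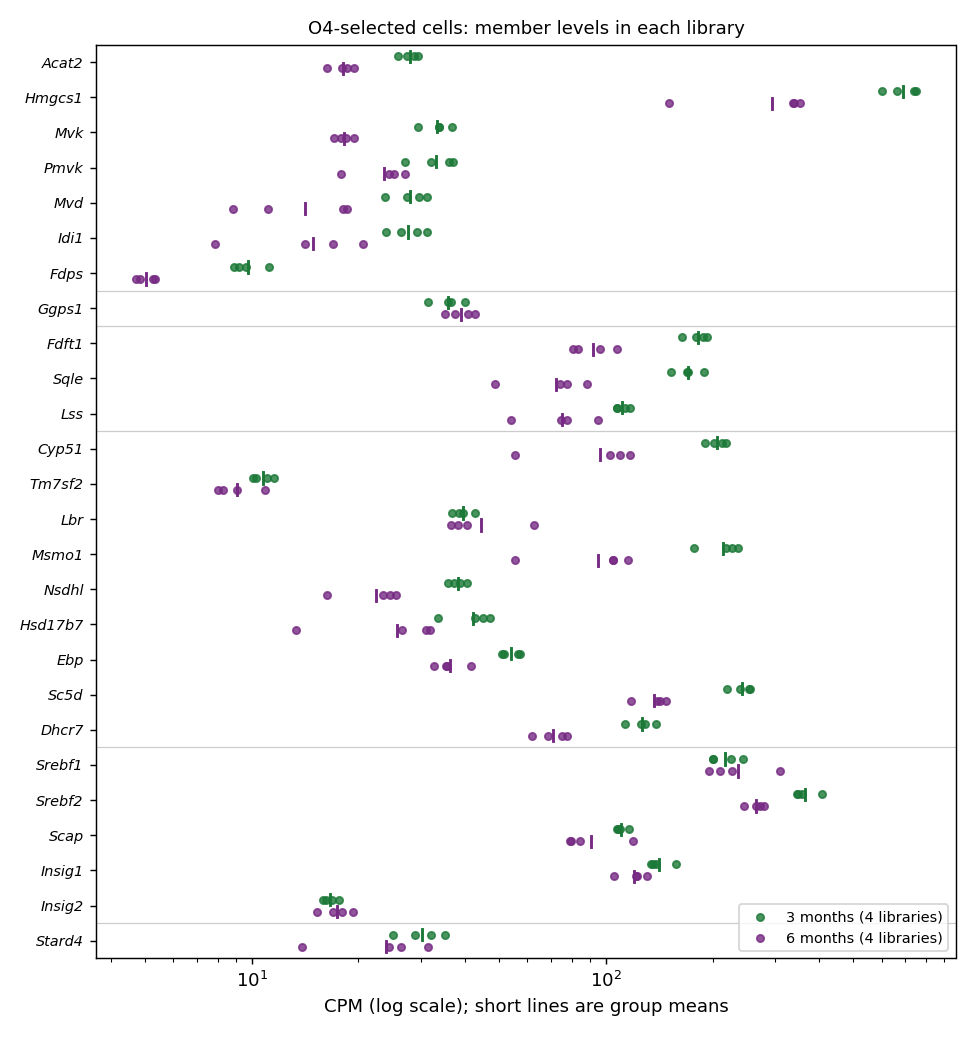
Levels of the 26 genes (rows, in pathway order, steps parted by grey lines) in CPM on a log axis, with 1 point per O4-selected library at 3 months (green) and 6 months (purple) and a short line at each group mean. In most rows no purple point reaches the green points, while those of Ggps1, Insig2 and Srebf1 intermingle.

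All 7 enzymes from acetyl-CoA to farnesyl diphosphate fell. Hmgcs1 (chromosome 13, 119690379 to 119708260, GRCm38) was at 662, 602, 741 and 753 CPM at 3 months and at 151, 340.1, 337 and 352 CPM at 6 months. All 6 month libraries were low, and replicate 1 was far below the other 3. The change was -1.23 ± 0.24 (adjusted p = 0.00742), and -1.01 ± 0.09 without replicate 1. Mvk, which encodes mevalonate kinase (chromosome 5, 114444269 to 114460591), was at 29.4, 36.7, 33.8 and 33.8 CPM at 3 months. At 6 months it was at 17.1, 19.4, 18.5 and 17.9 CPM, a tight group well below every younger library. Its change was -0.87 ± 0.09 (adjusted p = 0.000262). Mvd, which encodes the decarboxylase that makes isopentenyl diphosphate, fell by 0.99 ± 0.22 on the log2 scale (by 0.82 ± 0.17 without replicate 1 at 6 months), and Fdps fell by 0.95 ± 0.13. Of the Fdps exon bases 26.71% are shared with Gm43738 on the same strand, so its counts are uncertain. Acat2, which encodes the cytosolic thiolase that starts the pathway, fell by 0.63 ± 0.09. Acat2 has a close copy, Acat3, so its counts are uncertain. Idi1, the isomerase gene, fell by 0.90 ± 0.24 (by 0.70 ± 0.13 without replicate 1 at 6 months) and Pmvk, the phosphomevalonate kinase gene, by 0.49 ± 0.14. These last 2 calls were lost when some single libraries were left out, Idi1 without replicate 1 or 3 at 3 months or replicate 3 at 6 months, and Pmvk without replicate 2, 3 or 4 at 3 months.

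The branch that leaves the sterol route behaved otherwise. Ggps1, which encodes the enzyme that makes geranylgeranyl diphosphate for protein prenylation (chromosome 13, 14050659 to 14063488), was at 40.0, 31.3, 35.8 and 36.4 CPM at 3 months. It was at 37.5, 35.1, 40.7 and 42.7 CPM at 6 months, so the ages overlapped, and its change of 0.12 ± 0.10 was not called (adjusted p = 0.393).

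All 3 enzymes from farnesyl diphosphate to lanosterol fell. Sqle, which encodes squalene epoxidase, a rate-limiting enzyme of the later pathway (chromosome 15, 59315077 to 59331192), had the largest change of the 26. It was at 171, 153, 189.7 and 169.8 CPM at 3 months and at 48.7, 88.3, 74.3 and 77.8 CPM at 6 months. Each older library was below each younger one, and the change was -1.24 ± 0.16 (adjusted p = 0.00071), and -1.09 ± 0.09 without replicate 1 at 6 months. Fdft1, the squalene synthase gene, fell by 0.98 ± 0.10, from 164, 180.2, 188 and 193 CPM to 80.8, 107, 83.3 and 95.9 CPM. It shares 18.31% of its exon bases with Ctsb on the other strand, and whether counting used strand is not stated. Lss, the lanosterol synthase gene, fell by 0.56 ± 0.14.

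Of the 9 enzymes from lanosterol to cholesterol, 6 fell: Cyp51, Msmo1, Nsdhl, Ebp, Sc5d and Dhcr7. Msmo1, which encodes the sterol C4 methyl oxidase (chromosome 8, 64718139 to 64733792), was at 219, 177, 237 and 226 CPM at 3 months and at 55.3, 105, 104 and 116 CPM at 6 months. The groups stood clearly apart, at a change of -1.18 ± 0.21 (adjusted p = 0.00406), and -0.99 ± 0.10 without replicate 1 at 6 months. Cyp51, the lanosterol C14 demethylase gene, fell by 1.10 ± 0.20, and by 0.91 ± 0.08 without that library. Dhcr7, whose enzyme reduces 7-dehydrocholesterol to cholesterol, fell by 0.84 ± 0.09, from 125, 113, 138 and 129 CPM to 62.0, 68.5, 77.6 and 75.1 CPM. Sc5d, the sterol C5 desaturase gene, fell by 0.82 ± 0.09, Nsdhl, a C4 decarboxylase gene, by 0.76 ± 0.13, and Ebp, the sterol isomerase gene, by 0.57 ± 0.09. Hsd17b7, whose enzyme reduces a sterol ketone, was at -0.71 ± 0.24 and missed the threshold (adjusted p = 0.0621). Without replicate 1 at 6 months it was called, at -0.50 ± 0.12. The 2 genes for sterol C14 reduction were not called, Tm7sf2 at -0.24 ± 0.13 and Lbr at 0.18 ± 0.16. Lbr also encodes a receptor for lamin B in the inner nuclear membrane.

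Among the control genes only Srebf2, which encodes the SREBP that mainly drives cholesterol enzymes (chromosome 15, 82147181 to 82205379), was called. It was at 346, 357, 349 and 406 CPM at 3 months and at 245, 279.6, 273 and 265 CPM at 6 months. The ages did not overlap, and the change was -0.46 ± 0.08 (adjusted p = 0.00357), the smallest estimate among the 17. Srebf1, whose products mainly drive fatty acid genes, was at 200.5, 244, 200.2 and 225 CPM at 3 months and at 309, 195, 227 and 210.0 CPM at 6 months, with replicate 1 high. Its change of 0.11 ± 0.14 was not called (adjusted p = 0.590). Scap at -0.29 ± 0.13 (adjusted p = 0.125) and Insig1 at -0.24 ± 0.09 (adjusted p = 0.0733) were not called with all libraries, but both were called without replicate 1 at 6 months, at -0.45 ± 0.07 and -0.29 ± 0.08. Insig2 at 0.06 ± 0.10 and Stard4 at -0.34 ± 0.22 were not called in either case. Leaving out that library raised the count of genes that fell from 17 to 20. Over all genes tested that count rose as well, from 1329 of 14050 to 2216 of 14380.

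Genes of neighbouring pathways moved less uniformly in the same comparison. Of 16 genes of fatty acid synthesis, 6 fell and 1 rose, with a median of -0.24. Acss2, which makes acetyl-CoA from acetate, fell by 0.91 ± 0.09, and Acly, which makes it from citrate, fell by 0.61 ± 0.07. Tmem97, a sterol-responsive membrane protein gene kept in that list, fell by 0.90 ± 0.11. Of 14 tested genes of SREBP cleavage and sterol-regulated turnover, 4 fell and 0 rose, among them Hsp90b1, a chaperone gene of the endoplasmic reticulum, at -0.29 ± 0.07. Of 12 genes of the isoprenoid branches, 2 fell and 1 rose: the farnesyltransferase subunit genes Fntb (-1.12 ± 0.11) and Fnta (-0.44 ± 0.09) fell, and Trit1, a tRNA prenyltransferase gene, rose by 0.63 ± 0.18. Of 12 tested genes of LXR action and cholesterol efflux, 1 rose, the HDL receptor gene Scarb1 at 0.60 ± 0.10, and 0 fell. Of 19 tested genes of uptake, lysosomal export and storage, 5 fell and 1 rose. Cyp27a1, which makes 27-hydroxycholesterol, fell by 0.75 ± 0.11, and Lrp8, a receptor gene for apolipoprotein E and reelin, rose by 1.58 ± 0.34.

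Markers of other cells moved with age in the O4 libraries as well. All 14 endothelial genes rose, from a sum between 82.4 and 106 CPM to one between 301 and 901 CPM, and mural and fibroblast genes went from between 59.9 and 112 to between 240.2 and 491 CPM. Choroid plexus sums were between 38.7 and 933 CPM at 3 months and between 312 and 4007 CPM at 6 months. Of 16 myelinating oligodendrocyte genes 11 fell and 2 rose, while their sum, in which Mbp was the most abundant, went from between 92920 and 124775 to between 116473 and 177046 CPM. Of 12 precursor genes 5 fell, with sums that overlapped (501 to 1017 and 443 to 800.4 CPM). Newly formed oligodendrocyte genes rose in 3 and fell in 1 of 11 tested, and their sum went without overlap from between 4849 and 6454 to between 6625 and 9065 CPM. Neuron genes rose in 5 and fell in 1 of 12, with sums between 191 and 211 and between 189 and 288 CPM. Dividing-cell genes fell in 4 of 5 tested, from between 12.8 and 29.5 to between 5.75 and 9.06 CPM. The part of these shifts in the lower sterol genes was not tested. With every gene above 1% of a library left out of scaling and testing, 19 of the 26 genes fell, where 1811 of 14113 genes tested fell.

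**Figure D2:**
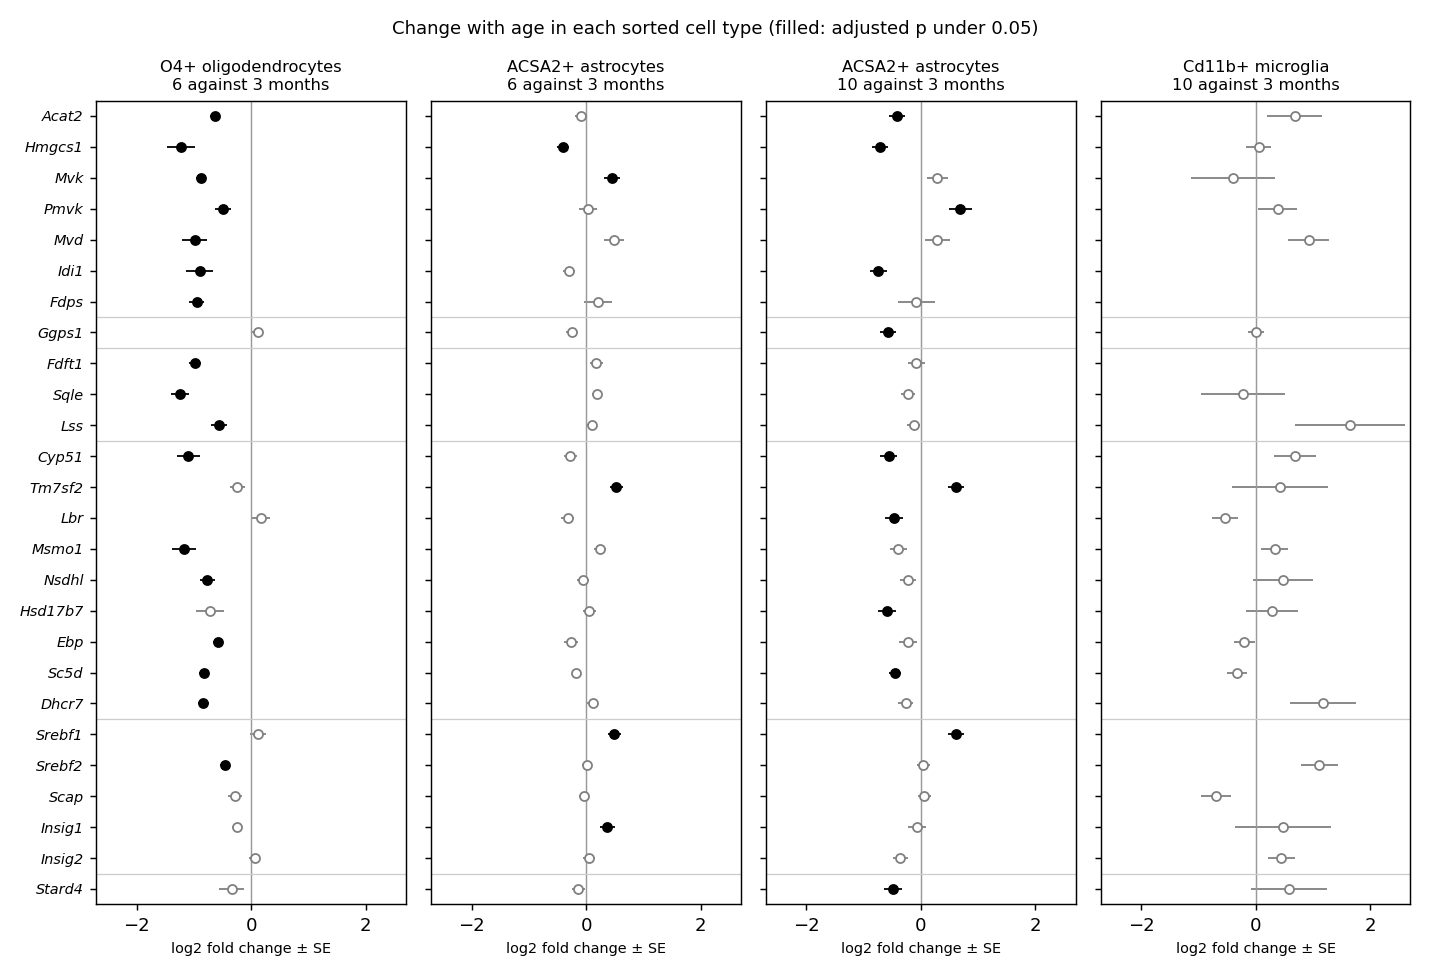
Log2 fold change ± SE with age (x axis) for the 26 genes (rows, in pathway order) in 4 comparisons, filled where the adjusted p was under 0.05. In O4-selected cells 17 genes are filled and left of 0, in ACSA2-selected cells filled points lie on both sides (4 higher and 1 lower at 6 months, 3 higher and 9 lower at 10 months), and in microglia none is filled.

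Astrocytes showed no such broad fall between 3 and 6 months. Of the 26 genes, 4 rose and 1 fell, where 6.28% of 16189 genes tested rose and 8.29% fell, and the median of the 26 was 0.05 against 0.00 over all. Tm7sf2, one of the 2 sterol C14 reductase genes (chromosome 19, 6062821 to 6068373), was at 31.7, 29.6, 26.6 and 22.4 CPM at 3 months and at 43.2, 38.8, 42.1, 38.1 and 35.9 CPM at 6 months. No library overlapped, at a change of 0.53 ± 0.11 (adjusted p = 0.00416). Of its exon bases, 12.08% are shared with Vps51 on the same strand in GENCODE vM21, so some of its reads may be counted either way. Srebf1 (chromosome 11, 60199089 to 60222581) was at 482, 442, 443 and 343 CPM at 3 months and at 615, 557, 622, 643 and 577 CPM at 6 months. All older libraries were higher, at 0.50 ± 0.11 (adjusted p = 0.00576). Mvk rose by 0.45 ± 0.14 (adjusted p = 0.0377) and Insig1, the SREBP target that holds SCAP back, by 0.37 ± 0.12 (adjusted p = 0.0489), with groups that overlapped.

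The gene that fell was Hmgcs1. It was at 449, 398, 486 and 459.9 CPM at 3 months and at 393, 369, 349, 289 and 299 CPM at 6 months, with every older library below every younger one. Its change was -0.40 ± 0.11 (adjusted p = 0.0177). The calls of Tm7sf2 and Srebf1 held whichever library was left out, and that of Hmgcs1 was lost without replicate 1 or 3 at 3 months or replicate 4 at 6 months. Over the 11 libraries left out in turn, Mvk was called 5 times and Insig1 2 times. Srebf2 was level, at 0.02 ± 0.09 (adjusted p = 0.912).

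At 10 months, with 2 libraries, 9 of the 26 genes were lower than at 3 months and 3 higher, where 11.2% of genes tested fell and 11.5% rose. The median of the 26 was -0.23 against 0.02 over all. Hmgcs1 was at 263 and 285 CPM, below all libraries of both younger groups, a change of -0.71 ± 0.14 (adjusted p = 0.00224). Idi1, at 19.5 and 23.6 CPM against 36.2, 30.8, 41.8 and 36.0 CPM at 3 months, fell by 0.75 ± 0.15. Ggps1 fell by 0.57 ± 0.14, Cyp51 by 0.57 ± 0.14, Hsd17b7 by 0.59 ± 0.16, Stard4 by 0.48 ± 0.16, Lbr by 0.47 ± 0.16, Sc5d by 0.45 ± 0.11 and Acat2 by 0.41 ± 0.14. Srebf1, at 684 and 619.7 CPM, rose by 0.61 ± 0.13, Tm7sf2 by 0.61 ± 0.13 and Pmvk by 0.69 ± 0.20. Without replicate 1 at 10 months, which leaves a single library assumed to vary like the others, only Hmgcs1 was still called, 1 lower and 0 higher. Markers of other cells differed between these libraries as well. Choroid plexus genes fell in 8 of 11, from a sum between 238 and 1559 to one between 19.2 and 63.8 CPM, with up to 2 of them at 0 in a 10 month library. Myelinating oligodendrocyte genes fell in 8 of 16 (sums 27665 to 44175 and 19349 to 29603 CPM) and endothelial genes in 5 of 14 (244 to 458 and 148 to 249.9 CPM). Of 12 precursor genes 4 rose, and of 11 tested microglia genes 4 rose, with sums that overlapped (344 to 356 and 329 to 363 CPM, and 220.2 to 291 and 227 to 269 CPM). Their part in the changes at 10 months was not tested.

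Between 6 and 10 months 1 gene was called, where 0.334% of genes tested fell and 0.574% rose. This was Msmo1, at 583, 601, 632, 486 and 564 CPM at 6 months and at 362 and 375 CPM at 10 months. The change of -0.64 ± 0.15 (adjusted p = 0.0459) was lost without either 10 month library and without 4 of the younger ones. None of the 26 rose in edgeR. In DESeq2 1 rose and 6 fell, where 253 of 11795 genes tested rose and 356 fell. At an unadjusted p under 0.05, found in either direction for 2727 of 16189 genes, 1 was higher and 14 lower.

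**Figure D3:**
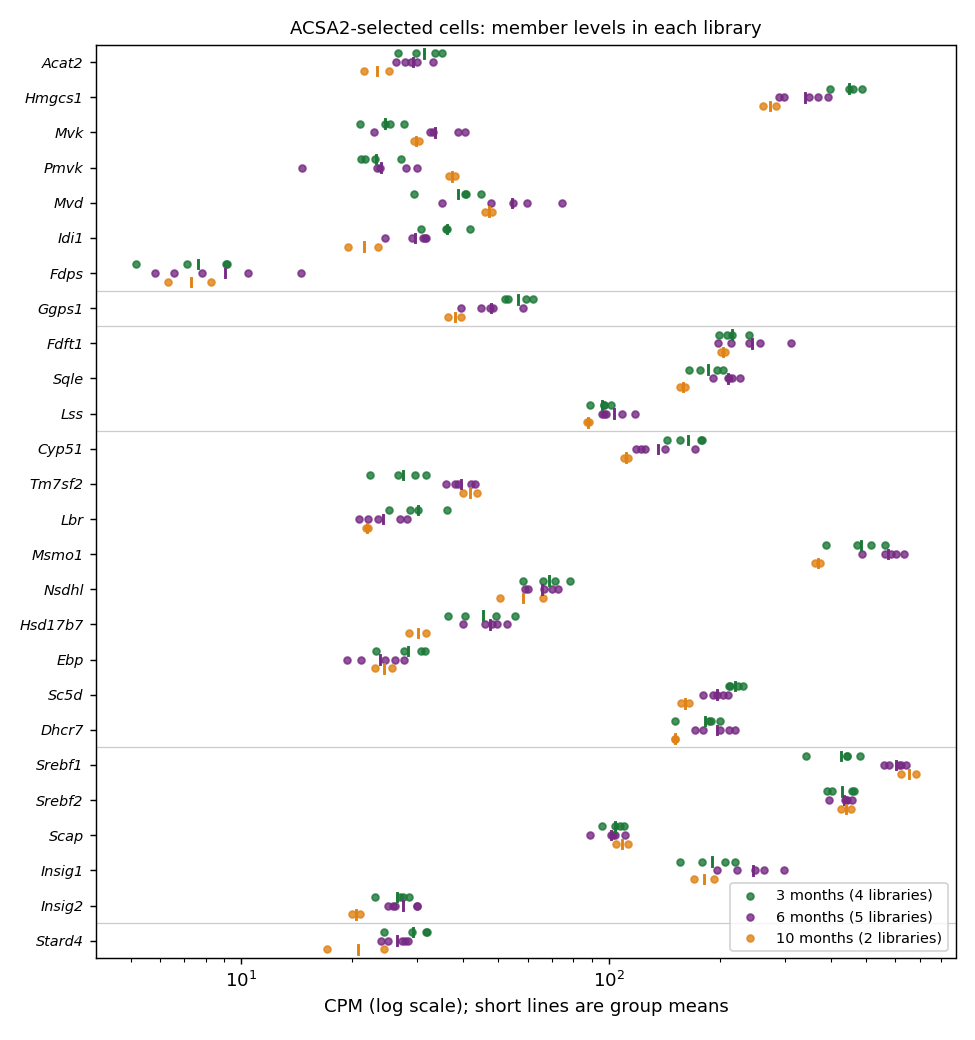
Levels of the 26 genes (rows, in pathway order) in CPM on a log axis, with 1 point per ACSA2-selected library at 3 months (green), 6 months (purple) and 10 months (orange) and a short line at each group mean. The orange points of Hmgcs1, Idi1 and Msmo1 lie left of all others in their rows, and the green points of Srebf1 and Tm7sf2 lie left of the rest.

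Related genes in astrocytes moved both ways at 6 months. Of 16 fatty acid genes 4 fell, among them the elongase gene Elovl6 (-0.54 ± 0.09), the desaturase gene Scd1 (-0.48 ± 0.09) and Acaca, the acetyl-CoA carboxylase gene (-0.39 ± 0.10). In the list of uptake, lysosomal export and storage 6 of 19 tested genes fell and 1 rose. Cyp46a1, the enzyme gene that turns cholesterol into 24-hydroxycholesterol for export from the brain, rose by 0.52 ± 0.09 at 6 months and by 0.78 ± 0.12 at 10 months. Vldlr, a lipoprotein receptor gene, fell by 0.49 ± 0.11 and by 0.92 ± 0.15 at the same ages. In the LXR and efflux list the transporter gene Abcg1 fell by 0.67 ± 0.15 at 6 months, while Abcg4 rose by 0.44 ± 0.11 and the receptor gene Rxra by 0.43 ± 0.09. Beside these values, 9 of 16 myelinating oligodendrocyte markers fell in the ACSA2 libraries at 6 months, from a sum between 27665 and 44175 to one between 18910 and 29186 CPM. Newly formed oligodendrocyte genes fell in 5 of 11 tested, from between 2010 and 2643 to between 1307 and 1787 CPM. Choroid plexus genes fell in 6 of 11, with sums that overlapped (238 to 1559 and 142 to 307 CPM). In smaller numbers 4 of 11 tested neuron genes, 2 of 14 endothelial genes and 2 of 9 tested dividing-cell genes fell, and 2 of 11 tested microglia genes rose. Their part in the changes at 6 months was not tested. The same ages share their 3 month libraries, so the changes at 6 and 10 months are not independent.

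The difference between the cell types in the effect of age was tested in a joint fit of both sorts at 3 and 6 months (17 libraries). For 17 of the 26 genes the change in astrocytes was higher than that in oligodendrocytes, and for 0 it was lower, where 6.44% of 16363 genes tested were higher and 9.97% lower. Also in DESeq2 17 were higher and 0 lower, where 1135 of 16017 genes tested were higher and 1944 lower. At an unadjusted p under 0.05, found in either direction for 5001 of 16363 genes, 22 were higher and 0 lower. The median difference was 0.75, against 0.02 over all genes. Mvd differed by 1.55 ± 0.31 (adjusted p = 0.00254), Sqle by 1.51 ± 0.18 (adjusted p = 2.9e-05), Msmo1 by 1.504 ± 0.23 (adjusted p = 0.000250) and Mvk by 1.41 ± 0.19 (adjusted p = 5.81e-05). In the separate fits the estimates for these 4 were 0.48, 0.19, 0.24 and 0.45 in astrocytes, of which only that of Mvk was called, and -0.99, -1.24, -1.18 and -0.87 in oligodendrocytes. Srebf2 differed by 0.56 ± 0.12 and Insig1 by 0.70 ± 0.17. Ggps1 at -0.28 ± 0.15, Lbr at -0.41 ± 0.20, Insig2 at 0.08 ± 0.14 and Stard4 at 0.29 ± 0.24 were not called, nor were Pmvk, Idi1, Ebp, Srebf1 and Scap. Of the 17 calls, 15 held whichever library was left out, and those of Hmgcs1 and Hsd17b7 did not. Without replicate 1 of 6 month oligodendrocytes 21 were higher and 0 lower, where 1522 of 16772 genes tested were higher and 1986 lower.

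At 6 months 17 of the 26 genes were higher in astrocytes than in oligodendrocytes and 2 lower, against 36.6% and 33.4% of genes tested. At 3 months 6 were higher and 11 lower, where 34.2% of genes tested were higher and 30.8% lower, so that count is not read as a result about the 26 genes. Hmgcs1 was lower in astrocytes at 3 months, at -0.99 ± 0.19 (adjusted p = 0.000105) and not called at 6 months, at -0.08 ± 0.17 (adjusted p = 0.704). Without replicate 1 of 6 month oligodendrocytes it was called lower in astrocytes at 6 months as well, at -0.30 ± 0.10 (adjusted p = 0.0141), and so was Stard4, which raised the genes lower in astrocytes from 2 to 4. Over all genes tested 5463 of 16363 were lower with that library and 5361 of 16772 without it. Mvk went from -0.82 ± 0.14 at 3 months to 0.59 ± 0.13 at 6 months. Msmo1 was higher in astrocytes at both ages, by 0.81 ± 0.17 and 2.31 ± 0.17, and so were Nsdhl, by 0.48 ± 0.12 and 1.27 ± 0.12, and Srebf1, by 0.61 ± 0.13 and 1.07 ± 0.13. Ebp was lower in astrocytes at both ages, at -1.29 ± 0.11 and -0.90 ± 0.11. Srebf2 was not called at 3 months, at -0.13 ± 0.09, and was higher in astrocytes at 6 months, by 0.43 ± 0.08. Since ACSA2 libraries also carried oligodendrocyte transcripts, these differences are those between the sorts.

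**Figure D4:**
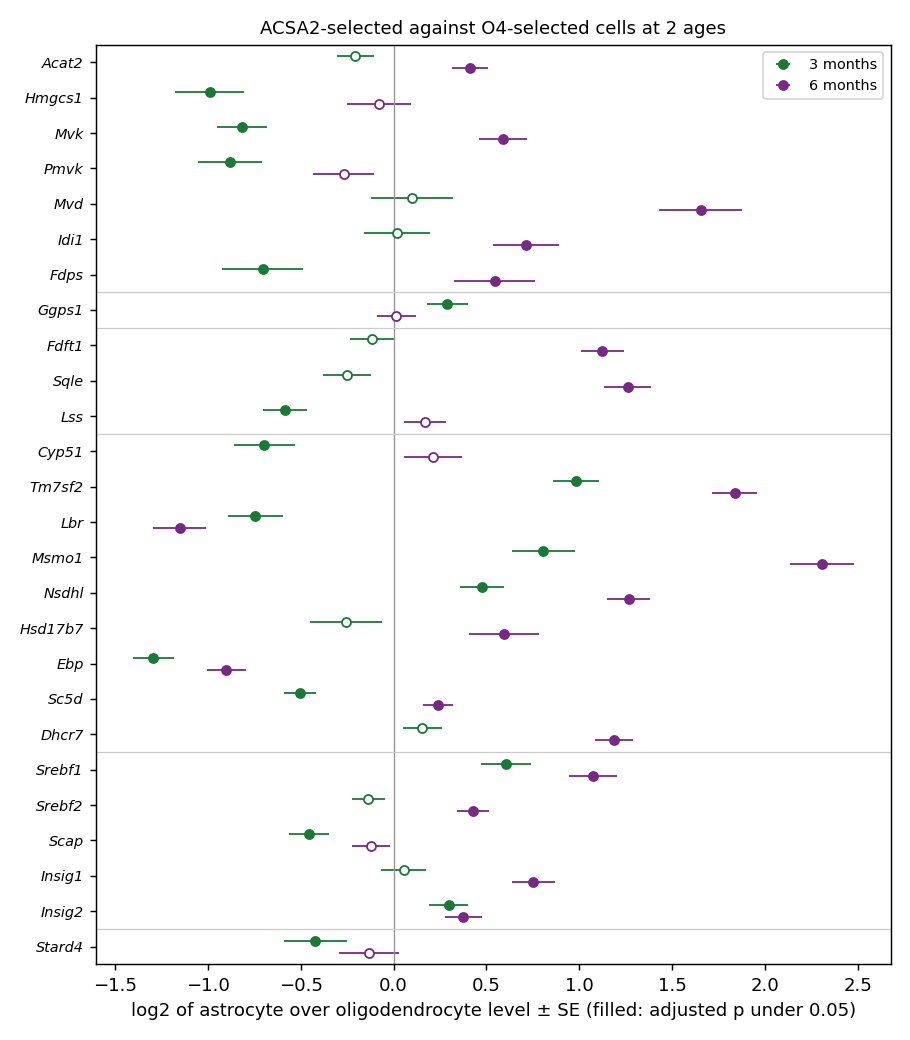
Log2 of the level in ACSA2-selected over that in O4-selected cells ± SE (x axis) for the 26 genes (rows, in pathway order) at 3 months (green) and 6 months (purple), filled where the adjusted p was under 0.05. Purple points lie right of green points in most rows, Tm7sf2 and Msmo1 are right of 0 at both ages, and Lbr and Ebp are left of 0 at both.

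Genes that stand in for each other within the pathway were set against each other inside each library, as ratios of the authors' TPM. Tm7sf2 and Lbr encode alternative reductases of the sterol C14 double bond. In oligodendrocytes the level of Tm7sf2 was between 0.283 and 0.303 times that of Lbr at 3 months and between 0.138 and 0.323 times at 6 months. In astrocytes it was between 0.667 and 1.27 times at 3 months, between 1.49 and 2.24 times at 6 months, and 1.99 and 2.14 times in the libraries of 10 months. The ratio was thus higher in every astrocyte library than in any oligodendrocyte library, and higher in every 6 month than in any 3 month astrocyte library. In an exact two-sided permutation test on log2 ratios, astrocytes exceeded oligodendrocytes by 1.74 at 3 months (p = 0.0286, adjusted over 12 tests 0.0381) and by 2.98 at 6 months (p = 0.00794, adjusted 0.0238). Astrocytes of 6 months exceeded those of 3 months by 0.84 (exact permutation p = 0.00794, adjusted 0.0238), and in oligodendrocytes the difference of -0.40 was not significant (exact permutation p = 0.171). These p are the smallest that the numbers of libraries allow, except the last. Without replicate 2 at 6 months the difference in oligodendrocytes was -0.57 (exact permutation p = 0.0286, not adjusted). Sums of myelinating oligodendrocyte markers in ACSA2 libraries were between 27665 and 44175 CPM at 3 months and between 18910 and 29186 CPM at 6 months. Tm7sf2 also shares 12.08% of its exon bases with Vps51. The part of either in these ratios was not tested.

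Srebf1 and Srebf2 were balanced differently too. In oligodendrocytes Srebf1 was at between 0.707 and 0.870 times Srebf2 at 3 months and between 0.889 and 1.61 times at 6 months. In astrocytes it was at between 1.12 and 1.40 times at 3 months and between 1.61 and 1.86 times at 6 months. The log2 ratio differed between the cell types by 0.74 at 3 months and 0.67 at 6 months, and between the ages by 0.48 in astrocytes (exact permutation p = 0.0286, 0.00794 and 0.00794, adjusted 0.0381, 0.0238 and 0.0238). In oligodendrocytes it rose by 0.55 (exact permutation p = 0.0286, adjusted 0.0381), a call lost (exact permutation p = 0.0571) without any single 3 month library or without replicate 1 at 6 months. Insig1 exceeded Insig2 in all sorted libraries of both types, between 7.38 and 12.96 times, and this ratio was lower at 6 than at 3 months in oligodendrocytes by 0.30 on the log2 scale (exact permutation p = 0.0286, adjusted 0.0381). Between the cell types it was lower in astrocytes at 3 months, at -0.25 on the log2 scale (exact permutation p = 0.0286, adjusted 0.0381), a call lost without replicate 2 or 4 of the astrocytes or replicate 4 of the oligodendrocytes. At 6 months the difference was 0.37, in the other direction, and did not pass after adjustment (exact permutation p = 0.0476, adjusted 0.0571). With age in astrocytes it was 0.32 (exact permutation p = 0.0873, adjusted 0.0952). Without replicate 5 at 6 months it was 0.43 (exact permutation p = 0.0286, not adjusted). In the ACSA2 libraries 9 of 16 myelinating oligodendrocyte markers fell from 3 to 6 months, and their part in these ratios was not tested.

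In microglia the pathway was measured with a kit that reads transcript 3′ ends, and its levels cannot be set against those of the other sorts. Summed levels of the 26 genes were between 508 and 602 CPM at 3 months and between 531 and 563 CPM at 10 months. Idi1 had no count in 6 of the 7 libraries, and with Fdps, Fdft1 and Srebf1 it did not pass the filter, which left 22 genes tested. Replicate 2 at 3 months had no count for 5 of the 26 genes. The most abundant were Ggps1, between 93.4 and 113 CPM, Ebp and Sc5d. In edgeR 0 of the 22 genes were called, where 1.94% of 12320 genes tested rose and 1.27% fell. At an unadjusted p under 0.05, found in either direction for 2085 of 12320 genes, there were 2 higher and 2 lower. DESeq2 called 1 gene higher, where 403 of 8735 genes it tested rose and 345 fell. That gene was Srebf2, at 15.6, 13.8 and 8.32 CPM at 3 months and at 19.2, 21.0, 34.6 and 34.1 CPM at 10 months. The ages did not overlap, and the change was 1.11 ± 0.32 in edgeR (adjusted p = 0.0719). Mvd at 0.92 ± 0.35, Lbr at -0.54 ± 0.22 and Scap at -0.70 ± 0.25 were the other 3. Genes of cholesterol handling were called in the same libraries. Apoe, the main lipid carrier gene of the brain, rose by 1.94 ± 0.19, the lysosomal export gene Npc2 by 1.05 ± 0.14 and the ester hydrolase gene Nceh1 by 1.36 ± 0.27. With Apod, a lipocalin gene at 1.70 ± 0.35, these were the genes that rose among 10 tested of LXR and efflux (2) and 17 tested of uptake, lysosomal export and storage (2), and 0 fell. Of 15 tested genes of fatty acid synthesis 0 rose and 1 fell, Mlxipl at -0.57 ± 0.12. Marker sums moved in the same libraries, each without overlap between the ages. Microglia genes went from between 31381 and 39308 to between 42155 and 57681 CPM (3 of 14 rose) and myelinating oligodendrocyte genes from between 1378 and 1704 to between 1786 and 2586 CPM (1 of 15 tested rose). Astrocyte genes went from between 164 and 176 to between 205 and 222 CPM (1 of 10 tested rose), with up to 5 of 14 at 0 in a 3 month library. Endothelial genes went from between 84.1 and 91.7 to between 111 and 141 CPM (1 of 9 tested rose), with up to 6 of 14 at 0 in a 3 month library. The part of these shifts in the values was not tested.

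In cultured astrocytes estimates for Omomyc against vehicle were small, between -0.25 and 0.36 on the log2 scale. In the fit without pairing 0 of the 26 genes were called, where 0% of 16119 genes tested rose and 0.0186% fell. At an unadjusted p under 0.05, found in either direction for 1022 of these genes, 3 of the 26 were higher and 0 lower. DESeq2 called 1, Hmgcs1, where 18 of 16119 genes tested rose and 79 fell. The median was 0.08 against -0.00 over all, and 22 of the 26 estimates were positive. Summed levels were between 2924 and 3179 CPM with vehicle and between 3273 and 3432 CPM with Omomyc. Libraries of the same replicate number deviated together, so a fit with the number as a block is given beside this one. In it 2 of the 26 genes rose and 0 fell, where 2.23% of genes tested rose and 1.84% fell.

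The genes that rose were Hmgcs1 and Stard4. Hmgcs1 was at 474, 514 and 486 CPM with vehicle and at 576, 615 and 635 CPM with Omomyc. It was higher with Omomyc in each of the 3 pairs and without overlap, by 0.31 ± 0.06 in the blocked fit (adjusted p = 0.0296) and by 0.31 ± 0.08 without the block (adjusted p = 0.568). Stard4 was at 44.4, 46.3 and 51.8 CPM with vehicle and at 58.5, 63.6 and 61.4 CPM with Omomyc. Again all treated libraries were higher, by 0.37 ± 0.07 in the blocked fit (adjusted p = 0.0223) and 0.36 ± 0.08 without the block (adjusted p = 0.524). Srebf2 was at 321, 309.7 and 319 CPM with vehicle and at 351, 345 and 357 CPM with Omomyc. Its libraries did not overlap, but at 0.15 ± 0.05 it was not called in the blocked fit (adjusted p = 0.176). Lss at 0.24 ± 0.06, Dhcr7 at 0.22 ± 0.06 and Sqle at 0.20 ± 0.06 were higher in 3 of 3 pairs and were not called (adjusted p = 0.0689, 0.0870 and 0.0896, blocked). The blocked calls depended on the pairs: leaving out 1 pair in turn gave between 0 and 9 genes higher, with 9 when pair 2 was left out. Without pair 2, 565 of 16238 genes tested rose and 520 fell.

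**Figure D5:**
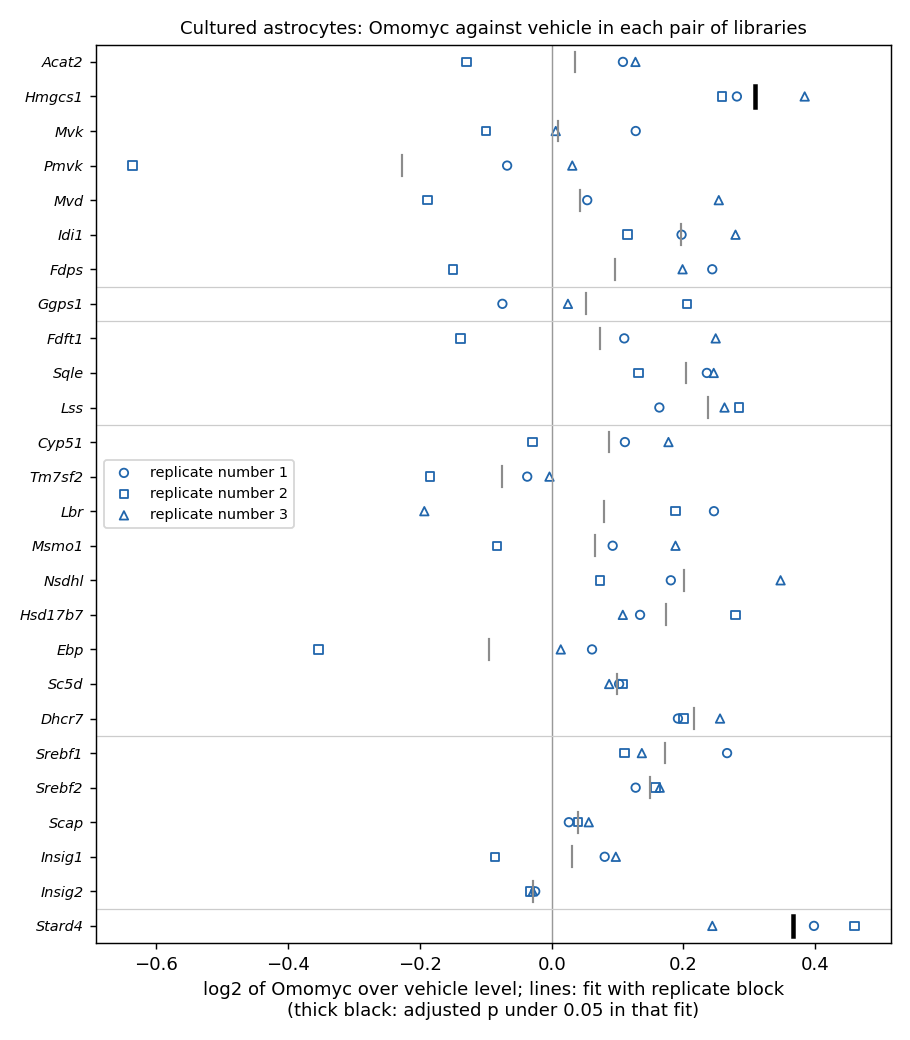
Log2 of the level with Omomyc over that with vehicle (x axis) in each of the 3 pairs of cultures (blue symbols) for the 26 genes (rows, in pathway order), with vertical lines at the estimate of the blocked fit, thick and black where its adjusted p was under 0.05. Only Hmgcs1 and Stard4 carry a thick line, and for Pmvk, Tm7sf2, Ebp and Insig2 the estimate lies left of 0.

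Beside the pathway, some single genes of cholesterol export and lipoprotein handling were called in the blocked fit. In the list of LXR action and efflux, with a median log2 fold change of -0.0025, 3 of 13 genes rose and 1 fell. In that of uptake, lysosomal export and storage, with a median of 0.02, 1 of 21 rose. These 5 are named after their values were seen. The sterol exporter genes Abcg1 and Abca1 rose by 1.08 ± 0.08 (adjusted p = 0.000934) and 0.44 ± 0.10 (adjusted p = 0.0488). Mylip, the gene of an LXR-induced ubiquitin ligase that removes lipoprotein receptors, rose by 0.65 ± 0.07 (adjusted p = 0.00421), and Lrp1, a lipoprotein receptor gene, by 0.48 ± 0.09 (adjusted p = 0.0293). Lcat, the gene of the enzyme that esterifies cholesterol on lipoproteins, fell by 0.48 ± 0.08 (adjusted p = 0.0152). None of the 5 was called without the block. In the same blocked fit 8 of 13 tested microglia markers rose, with sums between 2024 and 3589 CPM with vehicle and between 2429 and 4778 CPM with Omomyc, and dividing-cell sums were between 464 and 503 and between 513 and 699.8 CPM. Of the oligodendrocyte markers 3 of 11 tested newly formed, 1 of 12 tested myelinating and 1 of 11 tested precursor genes rose, with sums that overlapped. Also 2 of 13 tested astrocyte and 2 of 11 tested endothelial genes rose, and 1 of 9 tested neuron genes fell. The part of these cells in the values was not tested.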

How the data were processed

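The authors deposited raw read counts per gene and TPM values in tables of the whole series, and the counts were used for every test. Per the labels' protocols, astrocyte and oligodendrocyte libraries came from the CORALL mRNA kit with molecular identifiers, microglia libraries from QuantSeq 3′ and culture libraries from the Watchmaker mRNA kit with Twist adapters. Among the tools in the submitters' processing notes are the aligner STAR 2.7.7a, the counter featureCounts 2.0.1, UMI-tools 1.0.1 for molecular identifiers, and fastp. These notes list mm10, GRCm38.p6 and GRCm39 without tying any to a table, so which table used which build is not known here. Gene positions are from GENCODE vM21 on GRCm38. The TPM deposited by the authors served for levels compared between genes and for ratios within a library.

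From the counts, edgeR 4.0.16 (R 4.3.3) was run on each table with TMM scaling, filterByExpr at a minimum count of 10, robust quasi-likelihood fits and 1 mean per group, with Benjamini-Hochberg adjustment over all genes tested. The 3 astrocyte ages shared 1 fit, and astrocyte and oligodendrocyte tables were joined for the 17 libraries of 3 and 6 months. The SE was taken from the fold change and its F statistic. DESeq2 1.42.0, other scaling, no filter, fits of only the groups compared, a replicate block and leaving out each library were alternatives, and scripts were tested on simulated data. Replicate numbers paired the cultures, as judged from the data: deviations of same-numbered libraries correlated at 0.628, 0.432 and 0.682, and each matched its own number best. Tables were made with different kits, so levels were compared between tables only for astrocytes and oligodendrocytes. Genes, gene lists and tests were chosen with earlier results of these data known. All 26 genes are described. From each of 5 related lists, up to 3 called genes per comparison with the smallest p and at least 5 CPM in the higher group could be named, and marker lists are given by their summed CPM. Exceptions are said where they occur.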

Additional observations from a re-analysis of the deposited data

Results flagged for a closer look

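In O4-selected cells at 6 months, replicate 1 stood far from the other 3 libraries of its group for 3 genes. Hmgcs1 was at 150.5 CPM there and between 337 and 352 CPM in the others. Lbr was at 62.8 CPM against 36.5 to 40.5 CPM, and Scap at 119 CPM against 79.0 to 84.4 CPM. In microglia at 10 months, Ggps1 was at 113 CPM in replicate 1 and between 94.3 and 94.7 CPM in the others. Fdft1 was at 2.93 CPM in replicate 2 and between 0.412 and 0.724 CPM in the others, a level of few counts. These 5 came from 130 groups of values tested with Dixon's 95% criterion, of which chance marks about 1 in 20.

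The effect of age from 3 to 6 months differed between ACSA2-selected and O4-selected cells for 17 genes in the joint edgeR fit. On the log2 scale, astrocytes minus oligodendrocytes, the early enzymes differed by 0.62 (Acat2), 0.91 (Hmgcs1), 1.41 (Mvk), 1.55 (Mvd) and 1.25 (Fdps). The enzymes from squalene to lanosterol differed by 1.24 (Fdft1), 1.51 (Sqle) and 0.75 (Lss). The late enzymes differed by 0.91 (Cyp51), 0.85 (Tm7sf2), 1.504 (Msmo1), 0.79 (Nsdhl), 0.85 (Hsd17b7), 0.74 (Sc5d) and 1.03 (Dhcr7). The control genes that differed were Srebf2 at 0.56 and Insig1 at 0.70.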

How the results depend on the processing

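No fold change of a gene that was called changed sign under any alternative run. Of the values for single genes under all alternatives, 3875 stayed on the same side of the threshold, 99 lost a call and 78 gained one. For the change from 6 to 10 months in astrocytes the count of lower genes, 1, became 6 in DESeq2, 3 with no filter on low counts, 2 with only the 2 ages fitted and 2 with RLE scaling, and that of higher genes went from 0 to 1 in DESeq2 and 1 with no filter. In microglia 1 gene was higher in DESeq2, and with no filter 1 was higher and 1 lower. For Omomyc 1 gene was higher in DESeq2, and 2 with the replicate block. With that block and 1 pair left out, between 0 and 9 were higher and between 0 and 1 lower.

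With each library left out in turn, counts of higher genes were between 2 and 5 and of lower genes between 0 and 2 for astrocytes at 6 against 3 months. They were between 0 and 3 and between 1 and 11 at 10 against 3 months, and 0 and between 0 and 3 at 10 against 6 months. In oligodendrocytes they were 0 and between 15 and 20, and in microglia and for Omomyc without the block both stayed 0. Astrocytes against oligodendrocytes gave between 5 and 7 and between 10 and 12 at 3 months, between 15 and 18 and between 2 and 4 at 6 months, and between 15 and 21 and 0 for the difference in age effect.

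Outside the cultures replicate numbers did not pair the samples (correlations of deviations between -0.175 and 0.176). The replicate block there gave 2 lower genes in place of 1 in astrocytes at 6 against 3 months and moved no other count by over 1.5 times. The ratios of Tm7sf2 to Lbr in astrocytes with age and between the cell types, and of Srebf1 to Srebf2 in the same comparisons, kept their calls with raw counts and with each library left out, alternatives chosen after seeing the data. So were the fits without genes over 1% of a library and the blocked fits without a pair. The ratio of Insig1 to Insig2 between the cell types at 3 months lost its call without any of 3 single libraries.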
